A study of Mus musculus with 2 samples.

Results

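The genes described here are the 10 mouse genes of antigen presentation by major histocompatibility complex (MHC) class II: H2-Aa, H2-Ab1, H2-Eb1, Cd74, H2-DMa, H2-DMb1, H2-DMb2, H2-Oa, H2-Ob and Ciita. They were taken by symbol from the 32285 genes of the count matrices, and each symbol matched 1 gene in both matrices. The matrices came from digested whole lung of C57BL/6 mice carrying the SP-C I73T mutation, a mutant form of the surfactant protein C made by alveolar type 2 cells. Both the injured and the control lung carried this allele. Lungs were first lavaged, which removes part of the airspace cells, and then perfused, digested with collagenase D and freed of red cells before droplet 3′ single-cell sequencing. The design compares mutant lung 14 days after injury with mutant lung at steady state, with 1 library each. The protocol describes a single oral gavage of tamoxifen at 175 mg/kg in corn oil, which removes a neomycin cassette and so raises the mutant protein. The library titled injured is tagged as untreated and the library titled control is tagged as tamoxifen treated, so the treatment tags run against the titles. The groups here follow the titles. How many animals each library holds, and their age, is not given in the labels.

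MHC class II molecules are pairs of an alpha and a beta chain that carry peptides to the cell surface, where CD4+ T cells read them. H2-Aa and H2-Ab1 encode the alpha and beta chain of I-A, and H2-Eb1 encodes the beta chain of I-E, whose alpha gene is defective in C57BL/6 mice. Cd74 is the invariant chain, which fills the peptide groove and guides new molecules to endosomes. H2-DMa pairs with H2-DMb1 or H2-DMb2 to form H2-DM, which swaps the remnant of Cd74 for antigen peptide. H2-Oa and H2-Ob form H2-DO, an inhibitor of H2-DM known from B cells, thymic epithelium and some dendritic cells. Ciita is the transactivator that switches the whole group on, constitutively in dendritic cells and B cells and after interferon gamma in many other cells. In the lung, dendritic cells, B cells and some macrophages carry most class II, and alveolar type 2 cells also make it.

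The filters kept 2302 injured and 2298 control cells, with 19932086 UMIs in injured lung and 15964222 in control lung and a median of 3277.5 UMIs a cell in injured lung and 4483.5 in control lung. A UMI (unique molecular identifier) stands for 1 captured transcript end. The libraries shared 1 cell barcode. Cells were clustered without the 10 genes, and the 25 clusters were named from lists of marker genes. Each name means a cell with the markers of that type (dendritic cell-like, B cell-like and so on), and the ending is left out from here on. Conventional dendritic cells numbered 86 injured and 63 control cells, B cells 58 injured and 316 control, alveolar macrophages 333 injured and 312 control, and blood endothelial cells 91 injured and 386 control. A macrophage cluster whose leading genes against all other cells were C1qa, C1qc and Pf4, called C1q macrophages here, numbered 345 in injured lung and 8 in control lung, and mature dendritic cells 102 injured and 10 control cells. Alveolar epithelial cells numbered 102 in injured lung and 83 in control lung. Of these, 83 injured and 20 control cells carried markers of alveolar type 1 (AT1) or transitional cells, and 19 injured and 63 control cells carried markers of type 2 (AT2) cells. The alveolar macrophages of the injured library lay in 1 cluster (332 injured, 1 control cell) and those of the control library in another (1 injured, 311 control cells). A level is given only for at least 20 cells in a library. With 1 library a group no test between the conditions is possible, and each 95% interval here covers counting error only, not differences between animals or preparations.

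Of the 10 genes 8 lie together on chromosome 17 of GRCm38, within chr17:34092340-34316674, a stretch of 224335 bases. Ciita lies outside it, at chr16:10480059-10528418 on the plus strand. Class II promoters are known for the X and Y boxes, read by the RFX complex with CREB and by NF-Y. Both complexes hold Ciita at the promoter. A window of 250 bases before to 50 after the start was given by RefSeq (GRCm38.p6) for 7 of the 10 genes. The Y letters TGATTGG, searched on both strands, were found in 6 of these 7 genes, all but H2-DMa, and in 7.82% of all 32851 such windows. The X letters, AAC followed by any 2 bases and then ATGATG, were found in H2-Eb1, H2-DMb1, H2-DMb2 and H2-Ob, and in 0.137% of all windows. Only 9 of all windows held both, and 4 of these 9 belong to the 4 genes just named. The stretches around these letters are printed for the 4 genes whose stretch touches no annotated exon, because 3 of them show the X letters ahead of the Y letters and the last shows the Y letters alone. They run 5′ to 3′ in the direction of the gene, with the X and Y letters in capitals.
H2-Eb1, chr17:34305761-34305832, plus strand: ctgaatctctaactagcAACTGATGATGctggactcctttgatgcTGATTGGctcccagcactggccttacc
H2-DMb2, chr17:34145112-34145183, plus strand: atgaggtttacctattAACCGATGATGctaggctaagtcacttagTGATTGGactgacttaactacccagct
H2-Ob, chr17:34238801-34238872, plus strand: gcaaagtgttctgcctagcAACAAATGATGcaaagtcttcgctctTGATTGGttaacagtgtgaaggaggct
H2-Aa, chr17:34287847-34287918, minus strand: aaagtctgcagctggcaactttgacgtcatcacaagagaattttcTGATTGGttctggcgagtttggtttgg
Between the X and the Y letters lay 17 bases in H2-Eb1, 18 bases in H2-DMb2 and 15 bases in H2-Ob. H2-Aa holds the Y letters without an exact X match. The letters were chosen with these promoters in view, so the matches describe the sequence and do not show binding.

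Conventional dendritic cells held the highest level of the 3 chain genes, H2-Aa, H2-Ab1 and H2-Eb1, in both libraries. Their summed level was 25813 CPM (UMIs of the gene scaled to 1000000 UMIs of the class) in the injured library (95% interval 25476 to 26154) and 27531 CPM in the control library. B cells came next with 7577 CPM in injured lung and 10028 CPM in control lung. C1q macrophages of the injured library followed with 5001 CPM, most of it from a subcluster that carried fewer C1q markers and is described further on, and mature dendritic cells with 4059 CPM, while in control lung classical monocytes followed B cells with 4227 CPM. Endothelial cells at 753 CPM (659 to 858) and alveolar macrophages at 652 CPM (633 to 672) could not be ordered in the injured library, because their intervals overlap. In the control library endothelial cells had 1382 CPM and alveolar epithelial cells 1228 CPM, again with overlapping intervals, and alveolar macrophages were lower at 964 CPM. Alveolar epithelial cells of the injured library had 351 CPM. The lowest classes are given as a background, and the part of free RNA in the droplets in their levels was not tested. T cells or ILC2 had 208 CPM in injured lung and 63 CPM in control lung, but their 2 clusters differed. The cluster led by Lef1 and Dapl1 had 38.2 CPM in injured lung and 42.8 CPM in control lung, and the cluster led by Cxcr6 and Icos had 279 CPM in injured lung and 129 CPM in control lung. After thinning to 1000 UMIs a cell, 93.8% of the injured cells of the second cluster had none of these UMIs and the highest had 20. Levels in other low classes were 126 CPM in injured and 190 CPM in control neutrophils, and in secretory epithelial cells 41 CPM in injured and 53 CPM in control lung. Fibroblasts had 213 CPM in injured and 370 CPM in control lung.

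**Figure D1:**
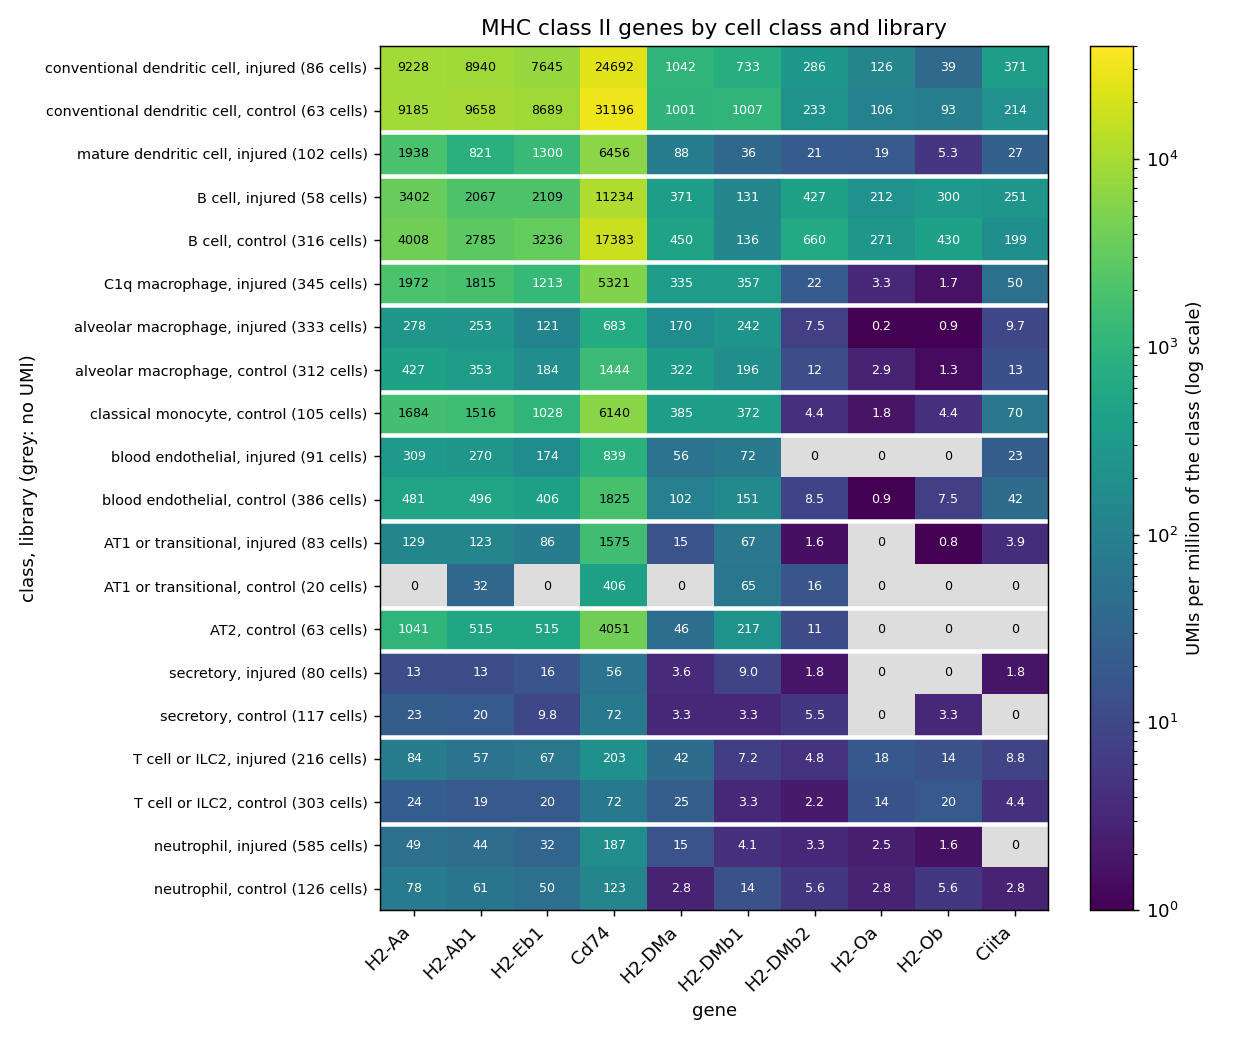
Level of each of the 10 genes (columns) in CPM, printed in each cell and coloured on a logarithmic scale, by cell class and library (rows), with the injured library above the control library and grey where there was no UMI. Conventional dendritic cells and B cells stand highest for H2-Aa, H2-Ab1, H2-Eb1 and Cd74, and H2-Ob is highest in B cells, at 300.3 CPM in injured lung and 430 CPM in control lung.

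Each gene followed this order in its own way. Cd74, which lies on chromosome 18, reached 24692 CPM in injured and 31196 CPM in control conventional dendritic cells, against 11234 CPM in injured and 17383 CPM in control B cells. Ciita was at 371 CPM in injured and 214 CPM in control conventional dendritic cells, and at 251 CPM in injured and 199 CPM in control B cells. In alveolar macrophages Ciita was at 9.74 CPM in injured lung and 13.1 CPM in control lung, and in injured AT1 or transitional cells at 3.92 CPM. T cells or ILC2, used here as a background class, had 8.81 CPM of Ciita in injured lung and 4.36 CPM in control lung, with all 11 injured UMIs in 1 of the 2 clusters of that class. Neutrophils had no Ciita UMI in injured lung and 1 in control lung, and secretory cells had 1 in injured lung and none in control lung. The 64 injured and 78 control Ciita UMIs of alveolar macrophages gave levels above those of neutrophils and secretory cells. The interval of control neutrophils, however, reached 15.5 CPM, above the alveolar macrophage level in control lung. In injured lung the intervals of alveolar macrophages and of T cells or ILC2 overlap. The cluster led by Cxcr6 stood above alveolar macrophages, at 12.5 CPM in injured lung and 16.1 CPM in control lung. It held 11 injured and 7 control Ciita UMIs, and its intervals overlap those of alveolar macrophages. The level in injured AT1 or transitional cells rests on 5 UMIs. The 3 genes H2-Ob, H2-Oa and H2-DMb2 were higher in B cells than in conventional dendritic cells in both libraries. For H2-Ob the levels were 300.3 CPM in injured and 430 CPM in control B cells, against 39.3 CPM in injured and 93.3 CPM in control conventional dendritic cells.

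The genes also differed in which cells carried their UMIs. In the injured library conventional dendritic cells held 41.7% of all UMIs of the 3 chain genes, C1q macrophages 33.6%, alveolar macrophages 8.0%, mature dendritic cells 7.2% and B cells 4.0%. In the control library B cells held 36.0%, conventional dendritic cells 29.5% and classical monocytes 10.9%. The H2-DO gene H2-Ob lay mostly in B cells, which held 54.1% of its UMIs in injured lung and 84.8% in control lung. For Ciita, conventional dendritic cells held 44.3% in injured lung and 15.4% in control lung, and B cells 9.8% in injured lung and 47.8% in control lung. For H2-DMb1 it was alveolar macrophages that held the most, 38.7% in injured lung and 43.3% in control lung. For H2-DMa they held 29.2% in injured lung, where C1q macrophages held 31.4%, and 48.1% in control lung.

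Within a class the cells were not alike. To set cells of unequal depth side by side, each cell was thinned to 1000 UMIs, which left out 276 injured and 339 control cells with fewer. Conventional dendritic cells then had a median of 24 chain gene UMIs in injured lung and 25 in control lung, and B cells 9 in injured lung and 11 in control lung. In these 2 classes nearly every cell carried the genes, with a Cd74 UMI in 98.6% of injured and 98.0% of control conventional dendritic cells and in all thinned B cells of both libraries. Mature dendritic cells of the injured library were spread wide, with a median of 1 chain gene UMI, 33.3% of cells at 0 and a highest cell of 44. C1q macrophages of the injured library had a median of 0 and a highest cell of 29, with 54.1% of cells at 0. One part of that class held most of the chain genes. This subcluster of 90 of the 345 cells, led by Ccl17, Il1r2, Il1b and Vcan, held 78.0% of the class's chain gene UMIs and 42.2% of all its UMIs. Its H2-Aa level was 3499 CPM, against 845 CPM in the subcluster of 138 cells led by Gpnmb, Syngr1 and Apoe. The subcluster stays unnamed, and the 33.6% share and the rank of the class rest mostly on it. Its C1q macrophage markers summed to 5335 CPM, against 28491 CPM in the subcluster led by Gpnmb, and its cDC2 markers to 1702 CPM, against 474 CPM there. The marker list ranked first for this unnamed subcluster against the rest of the class was that of neutrophils, with 2 genes up. A further subcluster of 98 cells, also unnamed, had 29481 CPM of alveolar macrophage markers and 6691 CPM of C1q macrophage markers. The class was split after its spread had been seen.

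**Figure D2:**
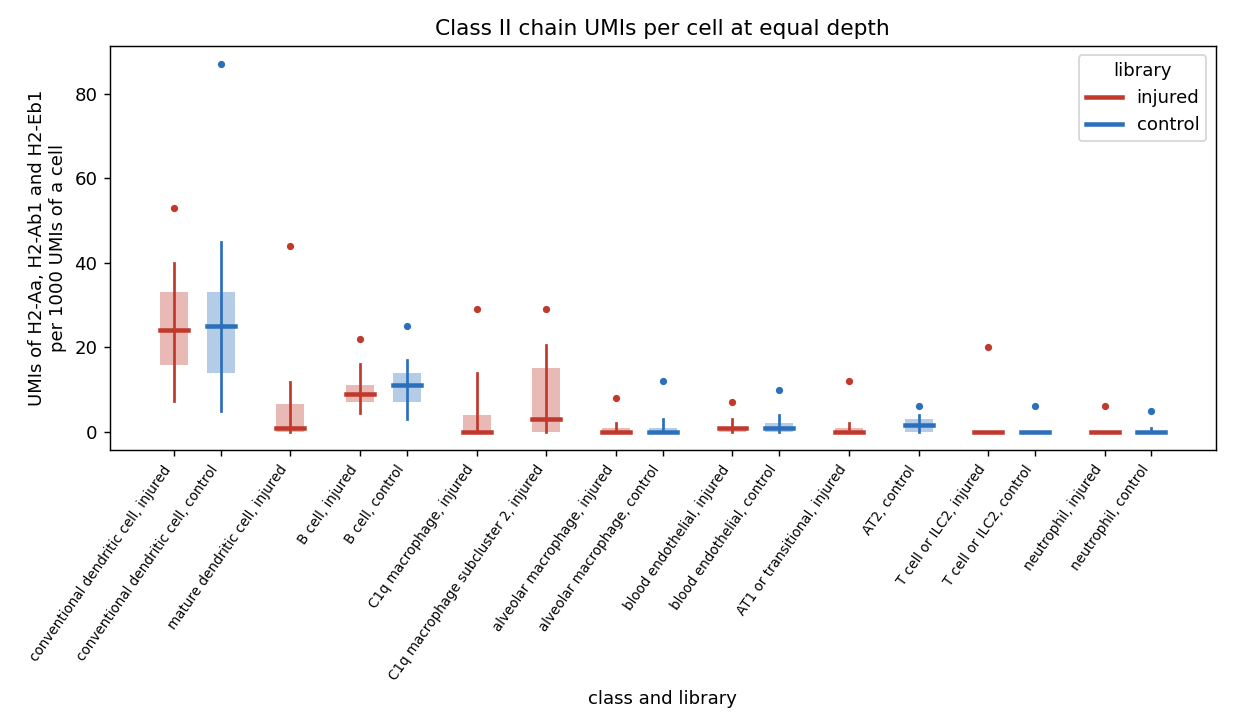
UMIs of H2-Aa, H2-Ab1 and H2-Eb1 per cell after thinning to 1000 UMIs, by class, with the injured library left of the control library. Thick lines are medians, boxes the middle 50% of cells, thin lines the 10th to 90th percentile and points the highest cell. Conventional dendritic cells have medians of 24 in injured lung and 25 in control lung, whereas C1q macrophages of the injured library have a median of 0 with cells up to 29.

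Among epithelial and endothelial cells, AT2 cells of the control library stood highest, with 1041 CPM of H2-Aa and 4051 CPM of Cd74. A Cd74 UMI was found in 88.1% of these cells after thinning and in 90.5% before. AT1 or transitional cells of the injured library carried a Cd74 UMI in 67.7% of cells after thinning and in 81.9% before, but 73.8% of them had no chain gene UMI. In endothelial cells the share with a Cd74 UMI after thinning was 52.6% in injured lung and 56.8% in control lung, and before thinning 50.5% in injured and 65.3% in control cells. In alveolar macrophages it was 37.7% in injured lung and 43.1% in control lung after thinning, and 85.6% in injured and 84.3% in control cells before, at the class's median of 18756 UMIs in injured lung and 18448.5 in control lung. For the background classes the thinned share was 6.5% in injured and 5.0% in control T cells or ILC2 and 11.9% in injured and 7.1% in control neutrophils. The shares in AT2, AT1 or transitional, endothelial and alveolar macrophage cells all lie above those of T cells or ILC2 and neutrophils. In control lung, however, the alveolar macrophage share was not above that of every class with a lower chain gene level. Control cells without a Cd74 UMI after thinning were 56.9% of alveolar macrophages, 53.2% of an unnamed cluster and 65.1% of fibroblasts. In injured lung these were 62.3%, 70% and 90.5% in the same order.

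The make-up of the UMIs separates the classes by the H2-DM and H2-DO genes. H2-DMb2 made up 76.6% of the H2-DMb1 and H2-DMb2 UMIs in injured B cells (95% interval 69.2 to 82.9) and 82.9% in control B cells (80.7 to 85.0). In conventional dendritic cells it made up 28.0% in injured lung and 18.8% in control lung, and in alveolar macrophages 2.99% in injured lung and 5.89% in control lung. Most such UMIs were thus H2-DMb2 in B cells and nearly all were H2-DMb1 in alveolar macrophages. Conventional dendritic cells differed among themselves, with an H2-DMb2 share of 37.1% in injured and 24.5% in control cells of the cDC2 subcluster, and 12.7% in injured and 5.59% in control cells of the cDC1 subcluster. The longest coding transcripts of these neighbouring genes are 95.5% identical over 1058 aligned bases and 87.5% identical over the 144 aligned bases of their last 300. Reads can therefore be split or lost between them, and the share is uncertain as an absolute value.

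H2-DO showed the same division between B cells, dendritic cells and alveolar macrophages. H2-Oa and H2-Ob together made up 35.5% of the H2-DO and H2-DM UMIs in injured and 36.0% in control B cells. Their part was 14.3% in mature dendritic cells of the injured library, 7.43% in injured and 8.17% in control conventional dendritic cells, and 0.25% in injured and 0.79% in control alveolar macrophages. In T cells or ILC2, with few UMIs of these genes, the H2-DO part was no lower than in B cells. They held 23 H2-Oa, 17 H2-Ob, 53 H2-DMa, 9 H2-DMb1 and 6 H2-DMb2 UMIs in injured lung. In control lung these numbered 26, 36, 45, 6 and 4 in the same order. Cd74 against the chain genes set AT1 or transitional cells of the injured library apart. For each UMI of the 3 chain genes there were 4.65 Cd74 UMIs in AT1 or transitional cells of the injured library (4.19 to 5.17) and 1.96 in AT2 cells of the control library (1.63 to 2.35). The ratio was 1.48 in injured and 1.73 in control B cells, and 0.96 in injured and 1.13 in control conventional dendritic cells. The interval of control AT2 cells includes the ratio of control B cells. Control nonclassical monocytes stood above AT2 cells, with 982 Cd74 and 415 chain gene UMIs. Secretory cells of the control library, with 66 Cd74 and 48 chain gene UMIs, stood below control B cells.

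**Figure D3:**
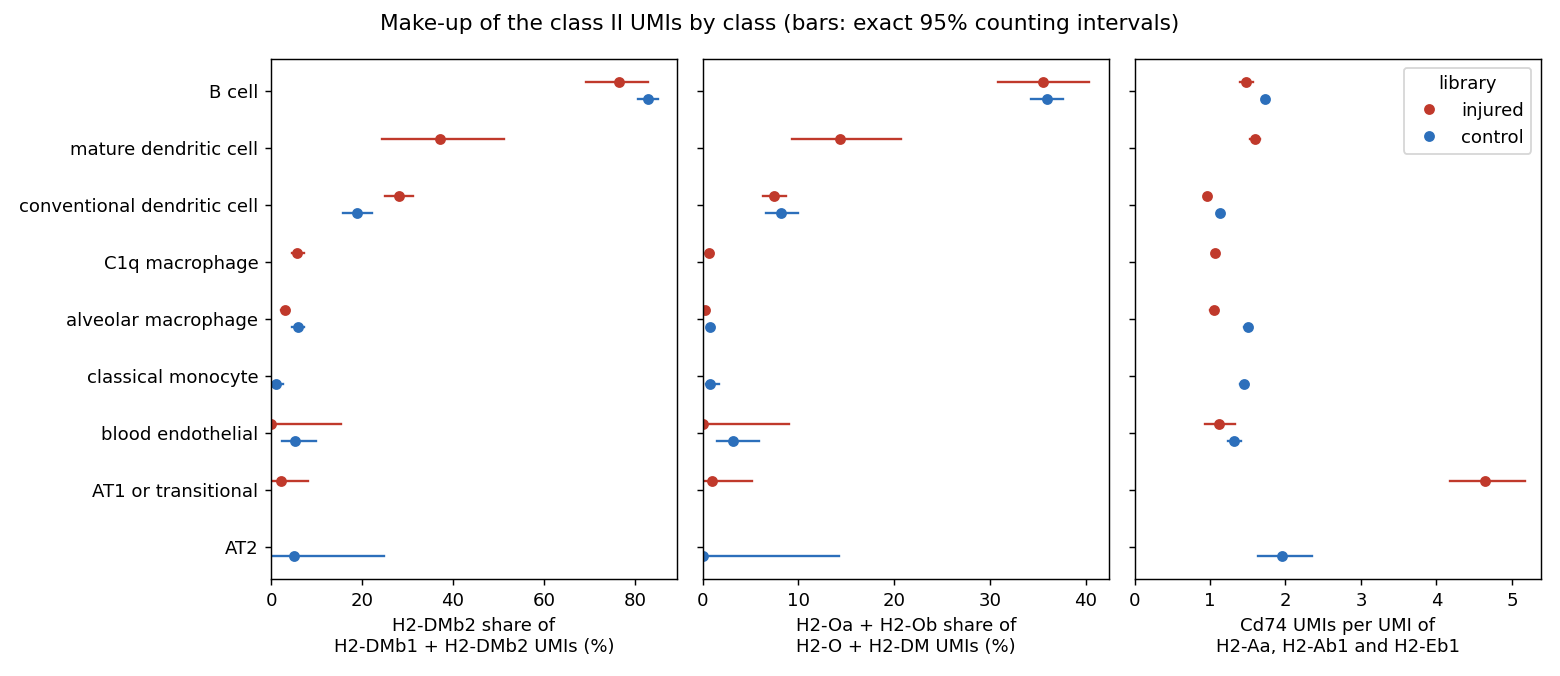
Make-up of the class II UMIs by class, as the H2-DMb2 share of H2-DMb1 and H2-DMb2, the H2-DO share of H2-DO and H2-DM, and Cd74 UMIs per chain gene UMI, with 95% counting intervals and the injured library above the control library. B cells stand highest for H2-DMb2 (76.6% injured, 82.9% control), and injured AT1 or transitional cells for Cd74 per chain gene UMI (4.65). The H2-DO share of B cells (35.5% injured, 36.0% control) is above those of conventional and mature dendritic cells and alveolar macrophages.

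The injured library was then set against the control library within each class. A ratio of injured over control CPM of 1.5 or more in either direction, among genes with at least 20 UMIs over both libraries in the class, is called higher or lower by size. In conventional dendritic cells the chain genes were close to even, with ratios of 0.93 for H2-Ab1 and 0.88 for H2-Eb1, and with H2-Aa at 9228 CPM in injured and 9185 CPM in control cells. Of the 10 genes 1 was called higher and 1 lower, where 23.1% of the 6524 genes of the class were called higher and 12.8% lower. Ciita was the higher one, at 371 CPM in injured lung and 214 CPM in control lung, a ratio of 1.73 (95% interval 1.38 to 2.19). It did not keep this direction when each cell was thinned to 1000 UMIs, where its log2 ratio was -0.18. H2-Ob was the lower one, at 39.3 CPM in injured lung and 93.3 CPM in control lung, a ratio of 0.42 (0.26 to 0.68), and its log2 ratio was -0.19 when every cell had the same weight. In the cDC2 subcluster (29 cells in each library) the Ciita ratio was 1.99, and in the cDC1 subcluster (25 injured, 20 control cells) it was 1.34 (0.91 to 2.01). B cell markers summed to 2.31 CPM in injured and 40.3 CPM in control conventional dendritic cells, and their part in the H2-Ob ratio was not tested.

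In B cells Cd74, H2-Eb1 and H2-DMb2 were lower by size in the injured library, each with a ratio of 0.65. Their intervals ran from 0.62 to 0.67 for Cd74, from 0.60 to 0.71 for H2-Eb1 and from 0.53 to 0.78 for H2-DMb2. H2-Eb1 was at 2109 CPM in injured and 3236 CPM in control B cells, and H2-DMb2 at 427 CPM in injured and 660.4 CPM in control B cells. These were 3 of 10 genes, where 19.1% of the 7136 genes of the class were called lower and 21.2% higher. The other 7 had ratios from 0.70, for H2-Ob, up to that of Ciita, whose B cell level was 251 CPM in injured lung and 199 CPM in control lung. All 3 ratios lie just past the size used, and no gene was called lower when every cell had the same weight. The B cell markers themselves summed to 7863.5 CPM in injured and 13167 CPM in control B cells, so the list that names the class was lower in injured cells too. Markers of C1q macrophages summed to 615 CPM in injured and 366 CPM in control B cells. The part of either in these ratios was not tested.

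In alveolar macrophages 5 of 8 genes with enough UMIs were lower by size in the injured library, where 20.8% of 10601 genes were called lower and 13.2% higher. The other 2 genes, H2-Oa and H2-Ob, had under 20 UMIs. Cd74 was at 683 CPM in injured lung and 1444 CPM in control lung, a ratio of 0.47 (0.46 to 0.49). H2-DMa was at 170.5 CPM in injured lung and 322 CPM in control lung, a ratio of 0.53 (0.49 to 0.57). H2-Aa had a ratio of 0.65, H2-Eb1 of 0.66 and H2-DMb2 of 0.61. H2-DMb1, whose product pairs with that of H2-DMa, lay on the other side of even but within the size used, at 242 CPM in injured lung and 196 CPM in control lung (ratio 1.23, 1.14 to 1.33). When each cell was thinned to 1000 UMIs, Cd74 and H2-DMa were the 2 genes still called lower. The comparison sets the cluster of 332 injured cells against the cluster of 311 control cells, so cell state and library cannot be told apart. Markers of C1q macrophages summed to 918 CPM in injured and 140.3 CPM in control alveolar macrophages, and their part was not tested.

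**Figure D4:**
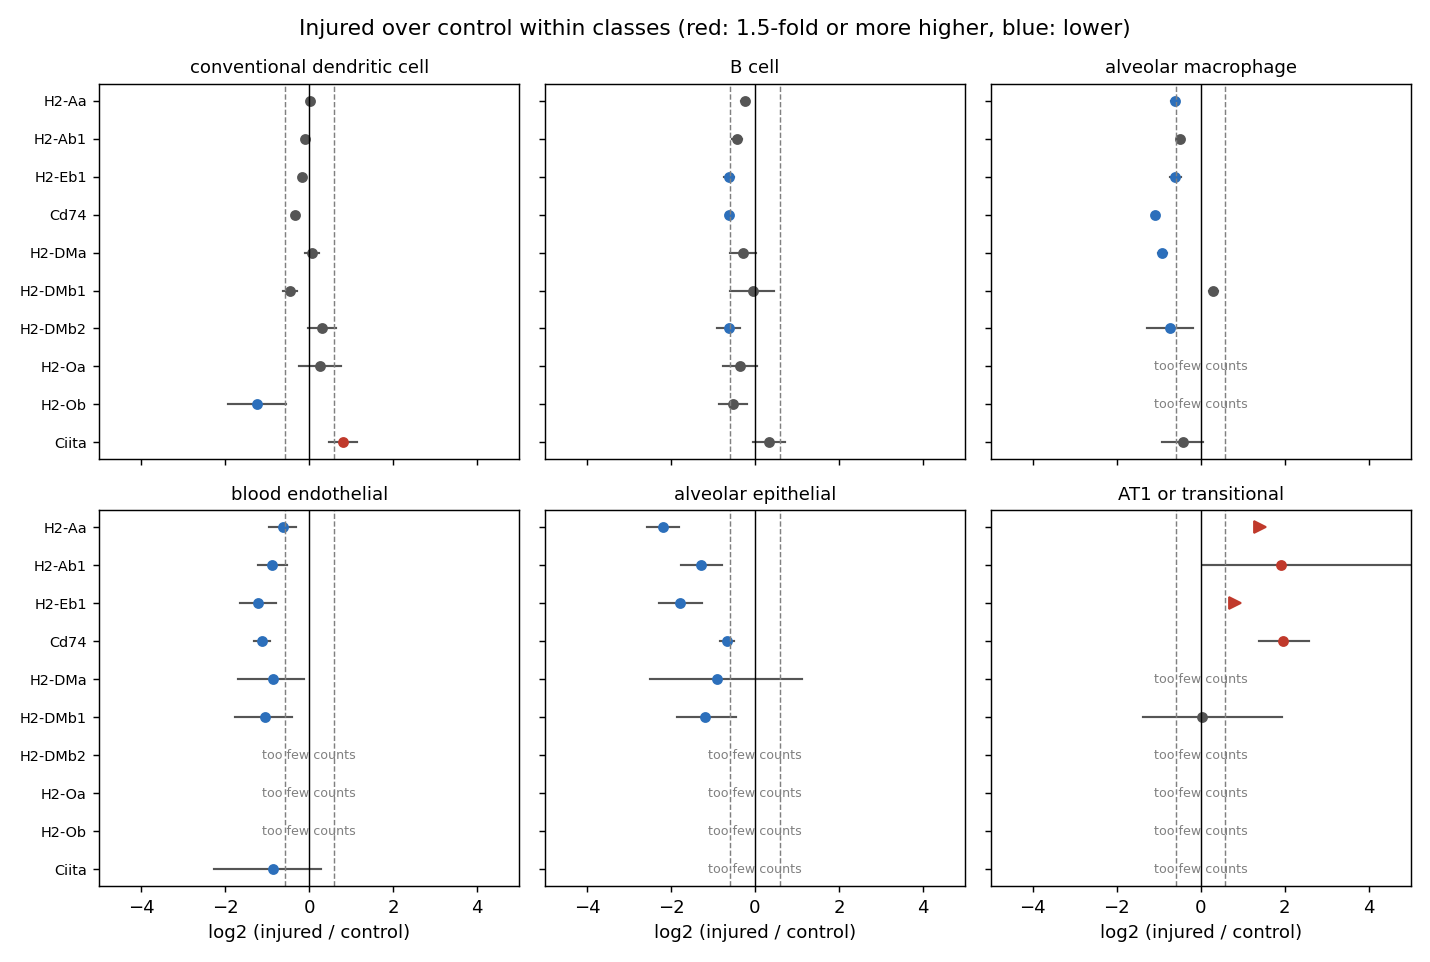
The log2 ratio of injured over control CPM (horizontal axis) for each of the 10 genes in 6 classes, with 95% counting intervals, dashed lines at 1.5-fold and triangles for ratios against a limit of 3 control counts. As ratios, alveolar macrophage Cd74 lies at 0.47 and endothelial Cd74 at 0.46, while conventional dendritic cell H2-Ab1 lies at 0.93.

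In blood endothelial cells all 7 genes with enough UMIs were lower by size in the injured library, where 19.7% of 7688 genes were called lower and as many in percent higher. H2-DMb2, H2-Oa and H2-Ob had no UMI in injured lung and at most 9 in control lung. Ciita rested on 7 injured and 45 control UMIs, with a ratio of 0.55 (0.21 to 1.22). Cd74 was at 839 CPM in injured lung and 1825 CPM in control lung, a ratio of 0.46, and H2-Eb1 was at 174 CPM in injured lung and 406 CPM in control lung, a ratio of 0.43. H2-Aa had a ratio of 0.64, and its log2 ratio was 0.12 when every cell had the same weight. With cells thinned to 1000 UMIs H2-Eb1 was the 1 gene still lower by size, and H2-DMa was higher, with a log2 ratio of 0.72. The endothelial clusters differed between the libraries. A cluster of 114 control cells with no injured cell held 76.1% of the chain gene UMIs of control endothelium, and a cluster of 26 injured cells with no control cell held 71.6% of those of injured endothelium. In the cluster that both libraries shared (65 injured, 272 control cells) 4 of 6 genes were lower by size, where 21.9% of 4747 genes were, with ratios of 0.36 for H2-Ab1, 0.42 for H2-Eb1, 0.43 for Cd74 and 0.59 for H2-DMb1. The summed B cell markers were 55.9 CPM in injured and 170.0 CPM in control endothelium. Of these 9 markers 6, Cd79a and Pax5 among them, were at 0 in injured lung and none in control lung. The class held 303922 UMIs in injured and 1064942 in control lung, so a 0 is likelier in injured lung. The list is not particular to B cells, since Ebf1 held all 14 of its UMIs in injured fibroblasts. Markers of type 2 conventional dendritic cells summed to 316 CPM in injured lung and 317 CPM in control lung. The part of the B cell markers in the class II ratios was not tested.

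The alveolar epithelium gave opposite directions in the whole class and in its larger injured part. Over the class all 6 genes with enough UMIs were lower by size in the injured library, from 0.22 for H2-Aa to 0.63 for Cd74, where 12.2% of 7717 genes were called lower and 47.9% higher. With cells thinned to 1000 UMIs 3 of them, H2-Aa, H2-Eb1 and H2-DMb1, were lower by size. H2-DMa rested on 19 injured and 4 control UMIs, and its interval includes even (ratio 0.53, 0.18 to 2.16). AT1 or transitional cells, however, were 81.4% of injured and 24.1% of control alveolar epithelial cells. Within AT1 or transitional cells 4 of 5 genes were higher by size, where 22.4% of 7541 genes were. Cd74 was at 1575 CPM in injured lung and 406 CPM in control lung, from 2007 UMIs in injured and 25 in control cells, a ratio of 3.88 (2.62 to 6.01). H2-Aa and H2-Eb1 had no UMI in the 20 control cells, so their ratios were taken against a limit of 3 control counts, at least 2.66-fold higher for H2-Aa and at least 1.77-fold for H2-Eb1. The 95% counting interval reaches down to 2.14 for H2-Aa and to 1.42, which is under the 1.5-fold size, for H2-Eb1. H2-Ab1 rests on 2 control UMIs, with a ratio of 3.80 (1.03 to 31.6). H2-DMb1 had a ratio of 1.03, and the other 5 genes had under 20 UMIs. After the level in T cells or ILC2 was subtracted from each library, Cd74 and H2-Ab1 were the 2 genes higher by size. The median depth was 13577 UMIs a cell in injured and 994.5 in control cells, and the control part then holds too few cells for a thinned comparison. AT2 cells could not be compared, since the injured library held 19. Marker lists of other cells were also counted in AT1 or transitional cells. Mature dendritic cell markers summed to 626 CPM in injured and 162 CPM in control cells, with 1 of 9 at 0 in injured and 6 of 9 in control cells. The cDC1 list summed to 476 CPM in injured and 487 CPM in control cells and the cDC2 list to 83.2 CPM in injured and 32.4 CPM in control cells. Of these, Xcr1, Clec9a, Cd209a and Clec10a were at 0 in both. Alveolar macrophage markers summed to 245 CPM in injured and 130 CPM in control cells, and C1q macrophage markers to 76.9 CPM in injured and 16.2 CPM in control cells. The part of these cells in the ratios was not tested.

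Over the whole libraries 3 of the 10 genes were lower by size in the injured library, where 15.9% of 14575 genes were. They were H2-Ob with a ratio of 0.16, H2-DMb2 with 0.34 and H2-Oa with 0.36. These are the 3 genes of which B cells held most UMIs in the control library, at 84.8%, 81.6% and 79.3% in the same order, and B cells were 2.52% of injured and 13.8% of control cells. In a summed library, fewer cells of a type and less RNA per cell cannot be told apart. H2-Aa was at 1050 CPM in injured lung and 1062 CPM in control lung, and Cd74 at 2990 CPM in injured lung and 4053 CPM in control lung. In T cells or ILC2 5 of 7 genes were higher by size in the injured library, where 38.8% of 8737 genes were. In the cluster led by Lef1 1 of 7 was higher and 1 lower, where 29.2% of 6716 genes were higher and 11.8% lower, with H2-Aa at 19.1 CPM in injured lung and 17.1 CPM in control lung. In the cluster led by Cxcr6 5 of 6 were higher, where 30.6% of 7142 genes were, with H2-Aa at 111 CPM in injured lung and 45.9 CPM in control lung. The cells of the class lay mostly in the Cxcr6 cluster in injured lung (144 of 216) and mostly in the Lef1 cluster in control lung (228 of 303).

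The median log2 ratio of the members with enough UMIs, given as a description, was -0.05 in conventional dendritic cells, where the median of all such genes of the class was 0.13. It was -0.39 in B cells (all genes 0.02), -0.61 in alveolar macrophages (-0.12), -0.88 in endothelial cells (0.02), -1.23 in alveolar epithelium (0.53) and 1.41 in AT1 or transitional cells (0), with H2-Aa and H2-Eb1 taken against the limit of 3 counts. Over the whole libraries it was -0.28 (all genes 0.07).

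The genes most like the chain genes were found over 27 units, each a class in 1 library with at least 20 cells. The measure was Pearson's r of log2(CPM + 10) against the summed level of the 3 chain genes, over 7701 genes. The units share libraries and their depth, so r is a description. Cd74 was most alike (r 0.98), followed by H2-DMa (0.89), Ciita (0.88) and H2-DMb1 (0.84). The next were Plekho1 (0.83), Fgd2 (0.82), Ly86 (0.80), Gdi2 (0.79), H2-DMb2 (0.79) and Cd86 (0.79), a costimulatory ligand of T cells. H2-Oa came 38th with 0.68 and H2-Ob 108th with 0.59.

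The proteases and helpers that cut antigen and the invariant chain were read from a list of 9 genes: Ctss, Ctsl, Ctsb, Ctsd, Ctsh, Ctsz, Lgmn, Ifi30 and Cst3. In alveolar macrophages 3 were higher by size in the injured library and none lower, where 13.2% of all genes of the class were higher and 20.8% lower, with Ctsl, a lysosomal protease, at a ratio of 3.13 and Lgmn, an asparagine endopeptidase, at 3.02. Ctss, the protease that trims the invariant chain in dendritic cells and B cells, had a ratio of 0.91 there. In B cells 2 were higher and 2 lower (all genes 21.2% and 19.1%), with Ctsb at 2.30, Ctsd at 1.34, Ctss at 0.62 and Ctsh at 0.63. In conventional dendritic cells 1 was higher and 1 lower (all genes 23.1% and 12.8%), with Ctsd at 1.5, Ifi30, a thiol reductase, at 1.40 and Ctsh at 0.57. In endothelial cells 3 were higher and 3 lower (all genes 19.7% each way), with Lgmn at 2.27 and Cst3, a protease inhibitor, at 0.36.

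Regulators of class II transcription were read from a list of 16 genes, which holds the RFX and NF-Y subunits and the interferon gamma signalling genes. In endothelial cells 1 of 12 genes with enough UMIs was higher by size and 2 were lower (all genes 19.7% each way), with Irf1, an interferon-induced factor that acts on the Ciita gene, at 0.48. In B cells 3 of 15 were higher and 6 lower (all genes 21.2% and 19.1%), with Irf4 at 3.18 and Jak2 at 2.65, and with Irf1 at 0.31 and Spi1 at 0.35. In conventional dendritic cells 1 of 13 was higher and 3 were lower (all genes 23.1% and 12.8%), with Jak2 at 2.56. In alveolar macrophages none of 16 was higher and 2 were lower (all genes 13.2% and 20.8%), Nfya at 0.53 and Rfxank, an RFX subunit, at 0.67.

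Costimulatory ligands, which T cells read together with class II, were read from a list of 7 genes. In conventional dendritic cells 6 of 7 were higher by size in the injured library and 1 lower (all genes 23.1% and 12.8%), with Icosl at 2.35, Cd80 at 1.78, Cd86 at 1.68 and Cd83 at 0.45. In alveolar macrophages 5 of 6 were lower and none higher (all genes 20.8% and 13.2%), with Cd83, which protects class II and Cd86 from breakdown, at 0.11 and Pdcd1lg2, an inhibitory ligand, at 0.25. The ratio of Cd86 there was 1.02. In B cells 1 of 6 was higher and none lower (all genes 21.2% and 19.1%), with Cd83 at 1.51. Of 4 genes that act on class II turnover, 1 is described here: March1, a ubiquitin ligase that removes class II and Cd86 from the surface. In alveolar macrophages its ratio of 1.53 was just past the size used, where 13.2% of all genes were higher and 20.8% lower. In B cells March1 was at 124 CPM in injured and 176 CPM in control lung. Conventional dendritic cells had 93.7 CPM in injured and 74.2 CPM in control lung. Calls of the other genes of this list are not reported here.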

How the data were processed

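Lungs were read as 1 injured and 1 control 10x 3′ v3 library. The authors deposited whole-number UMI counts per gene and barcode, with no normalization; per the file headers the software was Cell Ranger 4.0.0. Among tools, the submitters' processing notes name DESeq2 (1.26.0, 1.28.1), featureCounts (1.6.3) and STAR (2.7.2c), with the mm10 and GRCm38 builds, whose role for these libraries is not given in the sources used here. The matrices held 2702 injured and 2674 control barcodes. Cells with at least 500 UMIs, at least 200 genes and at most 15% mitochondrial UMIs were kept, and 44 cells a library with the highest simulated-doublet scores were removed (40 neighbours, 0.8% per 1000 cells). Cells were clustered over both libraries (2000 variable genes without the class II genes, 30 components, 20 neighbours, Leiden resolution 1, seed 1), with no batch integration, using Python 3.11.15, scikit-learn 1.9.0 and leidenalg 0.10.2. Clusters were named from marker lists. Pooling clusters into classes and splitting the conventional dendritic cells and C1q macrophages were decided after the clusters were seen. Levels are UMIs per 1000000 UMIs of a class with exact Poisson intervals, ratios have exact conditional binomial intervals, and shares exact Clopper-Pearson intervals, all at 95%. UMI counts were not divided by gene length. Apart from the make-up shares and ratios, which set UMI counts of different genes against each other, levels of different genes are not compared. H2-Eb1, H2-DMa, H2-Oa and Ciita overlap other annotated genes, and reads there can be misassigned. All 10 genes are named; of the other lists the 2 highest and 2 lowest ratios among genes with at least 50 UMIs were eligible to be named, and some values of these lists are not reported here. The genes and lists were chosen with earlier results of these data known. On simulated counts a true 2-fold rise passed the 1.5-fold size for 90% of genes in alveolar macrophages and 86% in endothelial cells, and unchanged genes passed it for 4.66% and 18.9%. A true 2-fold fall passed it for 95.7% of genes in alveolar macrophages and 76.6% in endothelial cells. These counts held counting error only, with no differences between cells, clusters or libraries.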

Additional observations from a re-analysis of the deposited data

Results flagged for a closer look

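The injured over control ratio ran in opposite directions in AT1 or transitional cells and in blood endothelial cells for 4 genes, and these differences were not tested. The difference of the log2 ratios was 3.08 for Cd74 (1.96 in AT1 or transitional and -1.12 in endothelial cells), 2.80 for H2-Ab1 (1.92 in AT1 or transitional and -0.88 in endothelial cells), 2.05 for H2-Aa (1.41 in AT1 or transitional and -0.64 in endothelial cells) and 2.04 for H2-Eb1 (0.83 in AT1 or transitional and -1.22 in endothelial cells). For H2-Aa and H2-Eb1 the AT1 or transitional values were taken against a limit of 3 control counts, since the control cells held no UMI. After the T cell or ILC2 level was subtracted, these genes were no longer higher by size there. The endothelial log2 ratio of H2-Aa was 0.12 with every cell at the same weight and -0.06 when thinned to 1000 UMIs. For Ciita the log2 ratio was 0.79 in conventional dendritic cells and -0.88 in endothelial cells, a difference of 1.67, also not tested. The endothelial value rests on 7 injured and 45 control UMIs, and the interval of its ratio (0.21 to 1.22) includes even. In conventional dendritic cells the log2 ratio was -0.18 when each cell was thinned to 1000 UMIs.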

How the results depend on the processing

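No paired analysis was possible because each group holds 1 library, and for the same reason no library could be left out. For the 30 gene and class pairs past 1.5-fold, 364 of 367 alternative values kept the direction and 328 stayed past it. The 3 that turned were H2-Aa in endothelial cells with every cell at the same weight (log2 ratio 0.12), and Ciita in conventional dendritic cells (-0.18) and H2-DMa in endothelial cells (0.72), both thinned to 1000 UMIs. Shares of all genes called are given only for the calls as reported and for lower calls at 2-fold. The other counts below have no such share beside them and describe the members only. With every cell at the same weight, the genes called lower numbered 0 in B cells (3 as reported), 3 in alveolar macrophages (5), 0 in conventional dendritic cells (1), 4 in endothelial cells (7) and 7 in the whole library (3). Thinned, they numbered 1, 2, 0, 1 and 6 in the same order and 3 in alveolar epithelium (6), while higher calls numbered 0 in conventional dendritic cells (1) and 1 in endothelial cells (0). At 2-fold, lower calls numbered 0 in B cells, 1 in alveolar macrophages and 3 in endothelial cells, where 8.49%, 8.86% and 9.61% of all genes in the same order were lower, and higher calls 0 in conventional dendritic cells. Clustering with the class II genes gave 0 lower calls in B cells and 3 in alveolar macrophages, where a 25% mitochondrial limit, resolution 2, median-of-ratios scaling and 10 CPM added also gave 3 each. In AT1 or transitional cells higher calls numbered 2 (4 as reported) after subtracting the T cell or ILC2 level, and lower calls 1 (0) with no minimum count; a 10% mitochondrial limit, resolution 0.5 and thinning left too few control cells there. The causes were not tested. Depth limits the AT1 or transitional comparison, which rests on 25 control Cd74 UMIs.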
